A study of Homo sapiens with 18 samples.

Results

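The comparison of an hnRNPM stable knockdown with wild type rests on 6 poly(A)+ RNA-seq libraries of A549, a human lung adenocarcinoma cell line: 3 of wild-type cells (WT) and 3 of the hnRNPM knockdown (hnRNPM KD), all untreated. They are 6 of 18 libraries in 6 groups of 3. The other groups are untreated stable knockdowns of S100A16 and of MagoHB, used below as reference knockdowns, and WT and S100A16 KD cells given 100 µM H2O2 for 2 h, which entered only the shared estimate of the spread. The members were taken by their labels: the 3 libraries labelled hnRNPM KD and the 3 labelled WT and untreated. The labels call the libraries biological replicates without saying how the cultures were separated, so the p-values measure the spread between these libraries. No source used here gives the knockdown method or says whether each stable line is 1 clone. The labels mention no control vector for the WT group, and loss of hnRNPM and the making and handling of a stable line cannot be told apart.

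hnRNPM is an abundant nuclear RNA-binding protein that binds GU-rich stretches of pre-mRNA and steers the choice of alternative exons. It works inside a large assembly of splicing regulators (LASR), a protein complex that helps RBFOX proteins act on introns, and it is known for promoting the mesenchymal splice form of CD44 in epithelial tumours. A549 cells carry an inactivating mutation of KEAP1, so the antioxidant transcription factor NRF2 is constitutively active in them. Total reads per gene do not show exon use, and splicing was not analysed here.

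The libraries held between 36612997 and 48482897 counts. Levels are CPM, counts scaled by TMM to a common library size, and a difference is a log2 fold change, hnRNPM KD minus WT, from edgeR. A gene was called where its Benjamini-Hochberg adjusted p over the 22382 genes tested was under 0.05. The 3 WT libraries lay close together, with an SD of the log2 difference of 0.0889 to 0.103 over 9045 genes of at least 10 CPM. hnRNPM KD 1 and 2 differed by 0.12, whereas hnRNPM KD 3 differed from them by 0.271 and 0.25. In hnRNPM KD 3 the genes furthest above the other 2 libraries included, chosen after their values were seen, complement C3 (42.2, 46.4 and 127 CPM in hnRNPM KD 1, 2 and 3) and fibronectin FN1 (495, 514 and 1281), and those furthest below included the cyclin CCNB2 and the securin PTTG1. Because this library stands apart, many results are also given without it. Where no such value is printed, the result is for all 3 knockdown libraries. Genes are named by rules of size, level and p within the gene lists, except those marked below as chosen after their values were seen.

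The cell type check found the keratins of simple epithelia. KRT8 was at 3615, 3569.8 and 3229.5 CPM in the WT libraries and 5056, 5384 and 5134 in the hnRNPM KD libraries, and KRT18 at 1421, 1414 and 1329.8 and 1655, 1644 and 1829.6. Other epithelial markers were lower. The means in WT and hnRNPM KD were 524 and 658 CPM for KRT7, and 49.3 and 18.4 for CDH1. EPCAM averaged 5.00 CPM in WT and 5.04 in hnRNPM KD. Of 28 epithelial genes 22 passed the filter on low counts, whereas ESRP1, GRHL2, OVOL1, CLDN3, RAB25 and PRSS8 did not. NKX2-1 and the 5 surfactant genes were below this filter as well. Of 19 alveolar type II and lung lineage genes 10 passed it, and these summed to 99.34 to 101.5 CPM in WT and 138.4 to 157.3 in hnRNPM KD, where 6 rose and 1 fell. Of 12 leukocyte markers 4 passed that filter, whereas CD3D, CD3E and MS4A1 did not, and of 7 endothelial markers PECAM1 and VWF passed. The leukocyte markers summed to 93.03 to 103.3 CPM in WT and 87.87 to 155.8 in hnRNPM KD, and nearly all of it was CD68, which epithelial cells also express. PTPRC, the defining leukocyte gene, averaged 0.228 CPM in WT and 0.4 in hnRNPM KD. The endothelial markers summed to under 1 CPM in each library. In bulk RNA, fewer cells of a type and less RNA per cell cannot be told apart.

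HNRNPM itself (chromosome 19, 8444767 to 8489114, GRCh38) was at 1771, 1795 and 1734 CPM in WT 1, 2 and 3 and at 397, 424 and 281 in hnRNPM KD 1, 2 and 3. All 3 knockdown libraries lay far below all 3 WT libraries, and hnRNPM KD 3 was the lowest. The difference was -2.26 (SE 0.13, adjusted p = 2.59e-10), which leaves 20.8% of the WT level. Per length, HNRNPM fell from 288 ± 2.09 to 64.6 ± 12.01 RPKM (SD, n = 3). Its close paralog MYEF2, a repressor of myelin gene transcription with the same kind of RNA-binding domains, was at 148, 155 and 146 CPM in WT and 237, 261 and 181 in hnRNPM KD. MYEF2 was higher in all 3 knockdown libraries, by 0.60 (SE 0.09, adjusted p = 1.51e-05).

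The partners of hnRNPM in LASR did not move together. Besides HNRNPM, 1 of the 8 other genes of the list rose and 3 fell, beside 25.4% of all tested genes that rose and 23.8% that fell. Without hnRNPM KD 3, 2 rose, and 4 rose when scaled by total counts alone. HNRNPUL2, an RNA-binding scaffold protein, rose from 209.6, 205 and 197 CPM in WT to 363, 389 and 329 in hnRNPM KD, a difference of 0.82 (SE 0.06, adjusted p = 4.02e-10). ILF2, a subunit of an RNA-binding complex, fell by 0.57, and HNRNPC, which binds U-rich RNA, fell by 0.47 on the log2 scale. The helicase DDX5 fell by 0.24. RBFOX2, the splicing factor that LASR serves, was at 88.1, 91.3 and 87.2 CPM in WT and 93.3, 89.6 and 99.02 in hnRNPM KD, and these ranges overlapped (difference 0.08, adjusted p = 0.302). HNRNPH1 and MATR3 missed the threshold as well, with differences of 0.04 and 0.10. CD44, the cell-surface receptor of hyaluronan, was at 61.1, 55.9 and 54.5 CPM in WT and 63.4, 79.97 and 169.8 in hnRNPM KD. The 3 knockdown libraries lay above WT, but hnRNPM KD 3 alone was far above it, and the difference of 0.87 missed the threshold (adjusted p = 0.0754). It was 0.32 without hnRNPM KD 3, and 1.12 (adjusted p = 0.0303) without hnRNPM KD 1. ESRP1, the epithelial splicing factor that opposes hnRNPM on CD44, was below the filter, and ESRP2 averaged 0.319 CPM in WT.

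**Figure D1:**
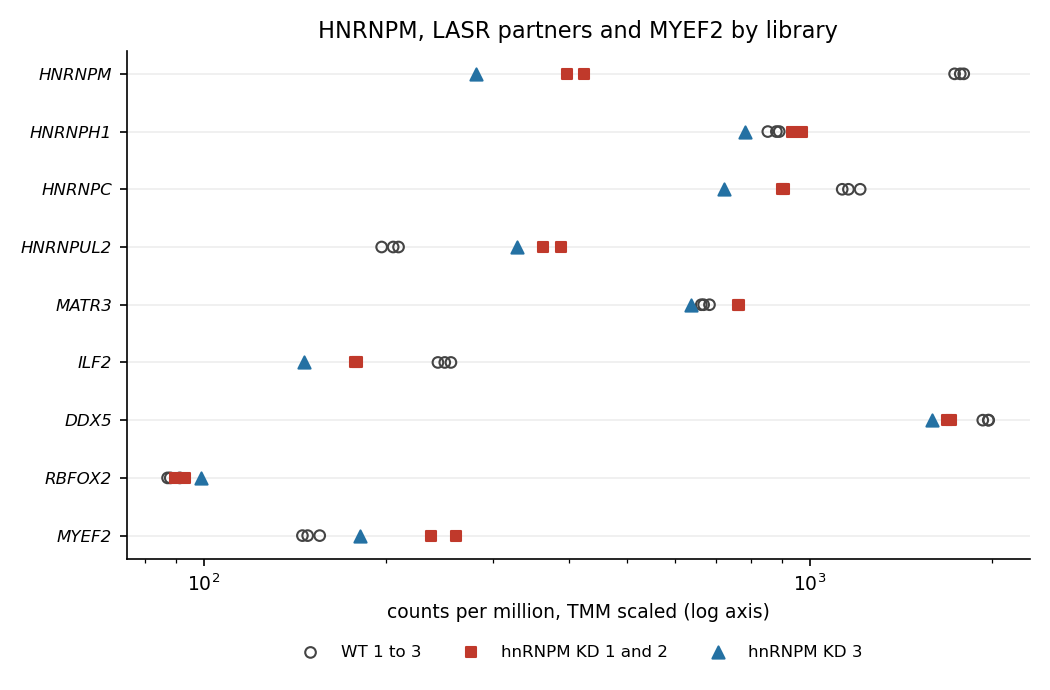
Level of HNRNPM, of LASR partners and of its paralog MYEF2 in each library, in CPM on a log axis; open circles are the 3 WT libraries, red squares hnRNPM KD 1 and 2, and blue triangles hnRNPM KD 3. HNRNPM lies far to the left in all 3 knockdown libraries, MYEF2 and HNRNPUL2 lie to the right of WT, and RBFOX2 overlaps with WT.

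Over all genes, 10999 of 22382 (49.1%) were called: 5676 higher (25.4%) and 5323 lower (23.8%) in the hnRNPM KD. Scaled by total counts alone, the median of all genes moved from 0.02 to 0.134 and the split became 7058 higher and 4129 lower. A difference of 2-fold or more was called in 3209 genes (14.3%), 1969 of them higher (8.8%) and 1240 lower (5.54%). In 6460 genes (28.9%) all 3 knockdown libraries lay above all 3 WT libraries, and in 6218 (27.8%) all 3 lay below. Without hnRNPM KD 3, 9967 of 22966 genes were called (43.4%), 5060 higher (22%) and 4907 lower (21.4%), and 9372 of the 10999 calls (85.2%) were kept in the same direction. At 2-fold or more, 7.12% of genes were then higher and 5.19% lower. Directly against the S100A16 KD 10931 genes differed (48.8%, 24.2% higher and 24.6% lower), and against the MagoHB KD 9963 (44.5%, 22.3% higher and 22.2% lower); scaled by total counts alone, these splits became 4013 higher and 6814 lower, and 3986 higher and 6196 lower. With 49.1% of genes called, a call alone says little, and the sizes and counts below are to be read beside these shares.

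The 3 largest rises were in COL21A1, IL11 and FST. COL21A1, a fibril-associated collagen, was at 0.321, 0.182 and 0.273 CPM in WT and 9.59, 11.7 and 10.1 in hnRNPM KD. IL11, a cytokine of the IL-6 family, was at 0.504, 0.5 and 0.842 CPM and 18.5, 23.8 and 22.2, and FST, the secreted antagonist of activin, at 1.60, 1.59 and 1.59 and 26.2, 31.3 and 36.1. For these 3 genes the knockdown libraries agree closely and lie well above WT, hnRNPM KD 3 included. The differences were 5.33 (SE 0.30, adjusted p = 4.30e-12) for COL21A1, 5.12 (SE 0.25, adjusted p = 1.41e-12) for IL11 and 4.29 (SE 0.30, adjusted p = 1.85e-08) for FST. The other large rises included the kinase NEK10, the pattern recognition protein PTX3, the growth factor HBEGF, the long non-coding RNA MEG3, the peptide hormone APLN, the muscle protein MYPN, the cytokine IL32, the transcriptional cofactor ANKRD1, podocalyxin PODXL, tissue factor F3 and the adaptor TRAF1, from 3.08 for TRAF1 to 4.07 for NEK10. PODXL shows the spread that hnRNPM KD 3 brings: it was at 11.5, 11.6 and 10.1 CPM in WT and 66.9, 78.3 and 144 in the knockdown libraries, and its rise was 2.71 without hnRNPM KD 3 against 3.12 with it.

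**Figure D2:**
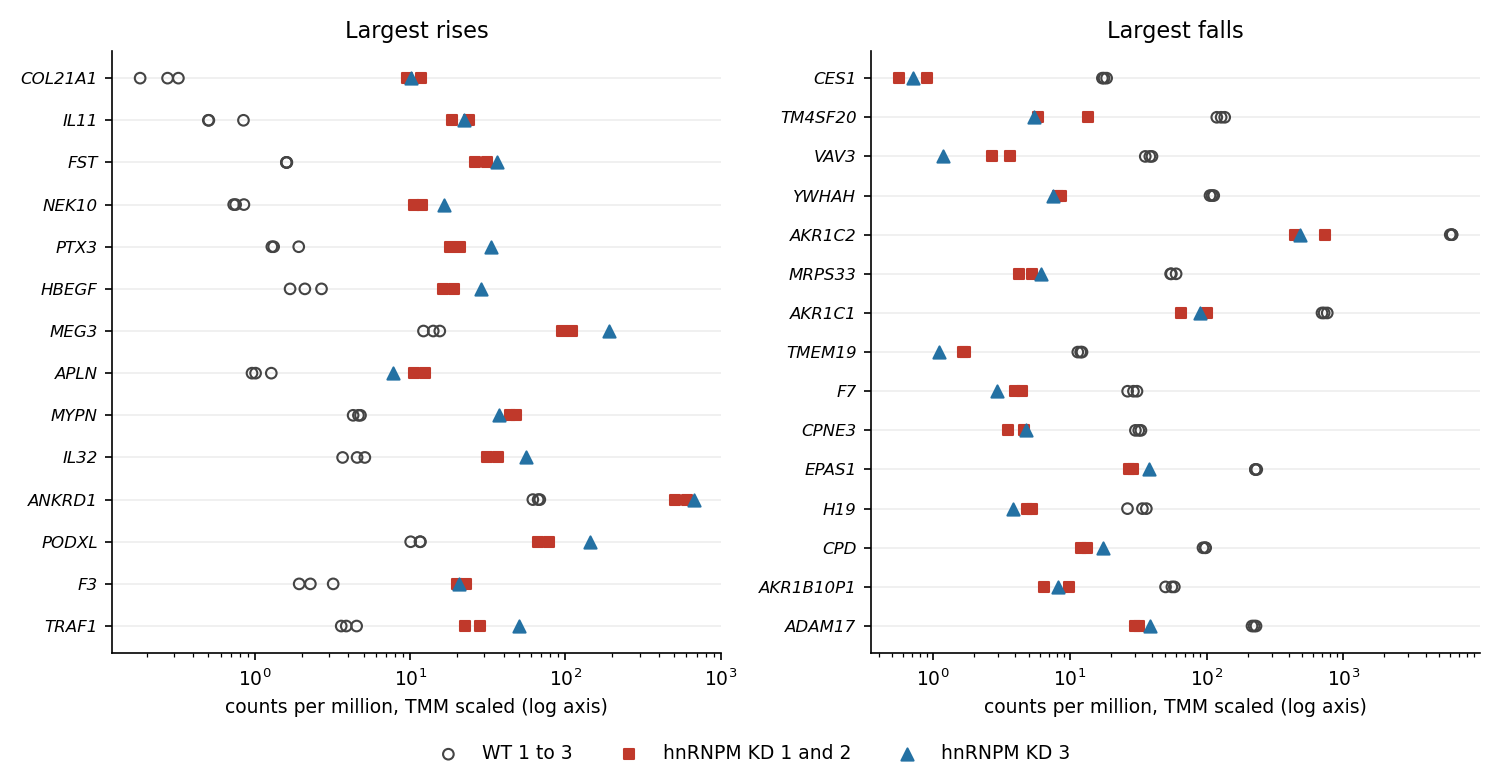
Level of genes with the largest rises (left) and the largest falls (right) in each library, in CPM on log axes; open circles are WT, red squares hnRNPM KD 1 and 2, blue triangles hnRNPM KD 3. No library of 1 group reaches the range of the other, which the rule for naming these genes required, and hnRNPM KD 3 lies to the right of the other knockdown libraries for MEG3, PODXL and TRAF1 among others.

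The largest falls stood differently against the reference knockdowns. CES1, a carboxylesterase of drug metabolism, was at 17.8, 17.3 and 18.6 CPM in WT and 0.559, 0.901 and 0.718 in hnRNPM KD, a fall to 4.06% of WT. CES1 has a near-identical pseudogene copy, so its reads may be shared, and against the MagoHB KD its difference missed the threshold (-0.62, adjusted p = 0.11). YWHAH, the 14-3-3 eta adaptor protein, was at 106, 113 and 109.6 CPM in WT and 8.65, 8.17 and 7.47 in hnRNPM KD. MRPS33, a protein of the small mitochondrial ribosomal subunit, was at 59.9, 54.6 and 55.3 and 4.26, 5.32 and 6.18. For YWHAH and MRPS33 the 3 knockdown libraries lie in a narrow band, with means at 7.39% and 9.29% of WT. YWHAH differed by -3.76 (SE 0.08) from WT, -3.68 from the S100A16 KD and -3.41 from the MagoHB KD, and MRPS33 by -3.43 (SE 0.09), -3.28 and -3.59.

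Among the other large falls, the membrane protein TMEM19, coagulation factor F7, the copine CPNE3, carboxypeptidase CPD, the hypoxia-inducible factor subunit EPAS1 and the sheddase ADAM17 differed from WT by -3.00, -2.93, -2.88, -2.76, -2.86 and -2.73, with SEs between 0.07 and 0.13. ADAM17, which releases EGF receptor ligands and TNF from the cell surface, was at 230.2, 223 and 215 CPM in WT and 29.98, 32.2 and 38.5 in hnRNPM KD. EPAS1 was at 228, 228 and 233 and 29.2, 27.3 and 38.1. Neither gene's knockdown libraries overlap with WT, and hnRNPM KD 3 is the highest of the 3. Against the MagoHB KD the differences were -1.93 for ADAM17 and -2.53 for EPAS1, and against the S100A16 KD -2.65 and -2.32. The membrane protein TM4SF20 (-3.93), the guanine nucleotide exchange factor VAV3 (-3.92), the synaptic protein CPLX2 (-2.44) and the leukotriene hydroxylase CYP4F3 (-2.67) also fell against all 3 groups. Over all genes tested, 1800 were higher against WT, the S100A16 KD and the MagoHB KD alike (8.04%) and 1954 were lower against all 3 (8.73%). These 3 comparisons share the hnRNPM KD libraries. H19, an imprinted long non-coding RNA, was also among the 15 largest falls, from 33.95, 36.3 and 26.4 CPM in WT to 4.86, 5.30 and 3.84 in hnRNPM KD, where MEG3 of another imprinted locus rose from 12.2, 15.5 and 14.1 to 95.1, 110.2 and 191.

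Genes higher against all 3 groups included receptors and secreted factors besides IL11, COL21A1, FST, PTX3 and HBEGF. The oxytocin receptor OXTR was at 10.4, 9.64 and 9.24 CPM in WT, 13.8, 14.6 and 13.1 in the S100A16 KD, 6.69, 13.7 and 8.17 in the MagoHB KD and 56.3, 63.3 and 59.4 in the hnRNPM KD. HAS2, a hyaluronan synthase, was at 3.23, 2.50 and 4.21 CPM in WT and 11.4, 12.96 and 14.7 in hnRNPM KD. The 3 hnRNPM KD libraries were above all 9 others for OXTR. The differences from WT, S100A16 KD and MagoHB KD were 2.61, 2.11 and 2.64 for OXTR and 1.97, 2.79 and 2.97 for HAS2. The lymphatic growth factor VEGFC, the beta-1 adrenergic receptor ADRB1 and LRRIQ1 were higher against each group by at least 1.93, 2.17 and 2.13.

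NRF2 targets fell broadly, and more than in either reference knockdown. NRF2 binds antioxidant response elements in genes for glutathione synthesis, NADPH supply and the disposal of reactive aldehydes and quinones. Of 32 such genes on the list 31 were tested: 26 fell, 17 of them by 2-fold or more, and 2 rose. Their median was -1.03 beside 0.02 over all genes. Summed over the list, the level was 13360, 13310 and 12990 CPM in WT and 6059, 5476 and 5559 in hnRNPM KD. Without hnRNPM KD 3, 25 fell with a median of -1.001, and 24 fell when scaled by total counts alone. Directly against the S100A16 KD 26 members were lower (all genes 24.6%), with a median of -0.545, and against the MagoHB KD 25 were lower (all genes 22.2%), with a median of -0.756.

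Most named members of the pathway fell. TXNRD1, thioredoxin reductase, was at 2457, 2506 and 2352 CPM in WT and 735, 640.4 and 744 in hnRNPM KD, and the quinone reductase NQO1 at 1501, 1533 and 1498 and 497, 393 and 342. SLC7A11, the cystine importer that feeds glutathione synthesis, was at 277, 290.3 and 278 and 58.6, 50.3 and 81.6. In these 3 genes the knockdown libraries lie together, far below WT. The differences were -1.79 (SE 0.08, adjusted p = 5.07e-14), -1.88 (SE 0.16, adjusted p = 1.30e-07) and -2.15 (SE 0.13, adjusted p = 8.76e-10). PGD, an NADPH-producing enzyme of the pentose phosphate pathway, fell by 1.49, and malic enzyme ME1, another source of NADPH, fell by 1.37. The epoxide hydrolase EPHX1 fell by 1.89 and the microsomal transferase MGST1 fell by 1.67. Further members were chosen after their values were seen. GCLC and GCLM, the catalytic and modifier subunits of the first enzyme of glutathione synthesis, fell, with differences of -1.79 and -1.03. The iron-storing ferritin chains FTL and FTH1 differed by -1.34 and -0.72. Heme oxygenase HMOX1 and the exporter ABCC1 were the 2 that rose, by 0.26 and 0.23.

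The aldo-keto reductases held the largest losses by level. AKR1C2, which reduces steroids and lipid aldehydes, was at 6242, 6258 and 6066 CPM in WT and 739, 446 and 486 in hnRNPM KD, and AKR1B10, a retinal and aldehyde reductase, at 3029, 2931 and 2664 and 519, 386 and 413. The knockdown libraries lie far below WT for both, and hnRNPM KD 1 is the highest of the 3. AKR1C2 fell 11.1-fold (-3.47, SE 0.27), AKR1C1 8.56-fold and AKR1B10 6.54-fold. AKR1C1 and AKR1C2, and AKR1B10 and its pseudogene AKR1B10P1 (-2.73), are near-identical, so how reads were split within each pair is uncertain. Per length, AKR1C2 stood at 876 ± 4.73 RPKM in WT and 85.3 ± 24.1 in hnRNPM KD (SD, n = 3). Of 27 tested aldo-keto reductase and aldehyde dehydrogenase genes 15 fell and 5 rose, with a median of -0.646. The 5 that rose became 2 or 3 when any library but hnRNPM KD 3 was left out. The dehydrogenases ALDH3A1, ALDH2 and ALDH1A1 fell, with differences of -2.20, -1.44 and -0.93, whereas ALDH1A3, which makes retinoic acid, rose by 0.55. The redox enzyme GLRX fell by 1.87, the lipid peroxidase GPX4 fell by 0.85, and mitochondrial SOD2 rose by 1.18.

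The regulators of the pathway, chosen after their values were seen, were lower as well. NFE2L2, which encodes NRF2, was at 87.9, 86.5 and 90.2 CPM in WT and 54.3, 48.5 and 51.5 in hnRNPM KD, without overlap. It fell by 0.78 (SE 0.06, adjusted p = 3.29e-10) against WT, and differed by -0.73 and -0.63 from the S100A16 and MagoHB KD. KEAP1, the adaptor that targets NRF2 for degradation, fell by 0.73, the dimer partner MAFG fell by 0.32 and the competing repressor BACH1 fell by 0.65. Directly, KEAP1 differed by -0.17 (adjusted p = 0.079) from the S100A16 KD and by -0.42 from the MagoHB KD. In the same order MAFG differed by -0.36 and -0.52, and BACH1 by -1.12 and 0.23 (adjusted p = 0.112).

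**Figure D3:**
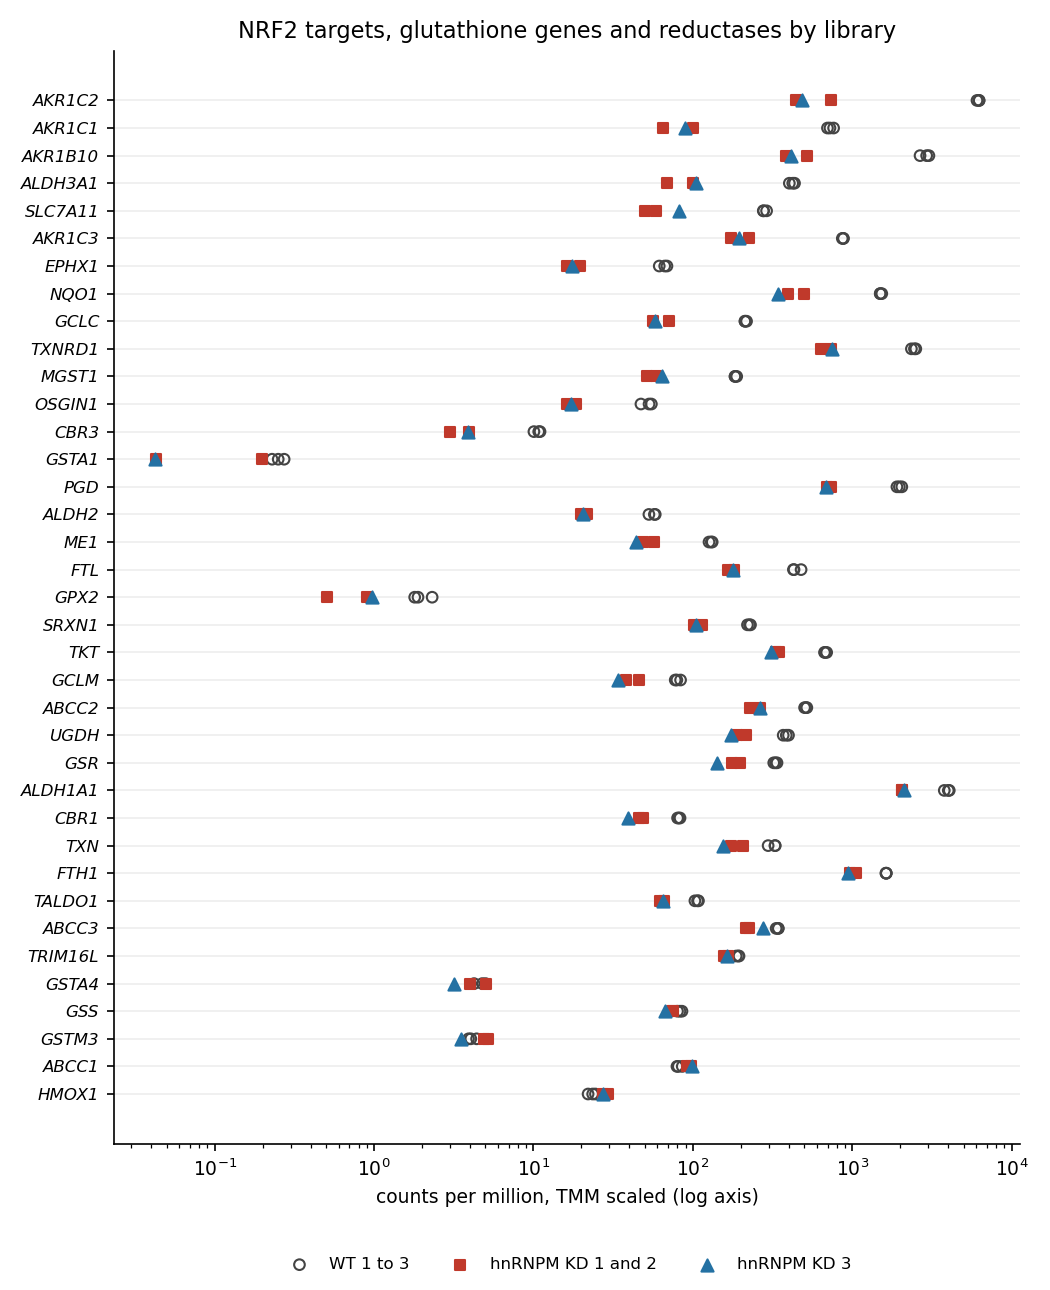
Level of tested NRF2 targets and glutathione genes and of 7 reductase and dehydrogenase genes in each library, in CPM on a log axis, ordered by fold change; open circles are WT, red squares hnRNPM KD 1 and 2, blue triangles hnRNPM KD 3. From AKR1C2 down to ABCC3 the knockdown libraries lie to the left of WT, and ABCC1 and HMOX1 lie to the right.

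The antioxidant response element has the core TGACNNNGC, searched on both strands in the 250 bases before each RefSeq start (GRCh38.p14). It occurs in 11% of 27305 promoters and in 7 of 22 list members with a promoter in the table (31.8%): GCLM, TXNRD1, PGD, ME1, GPX2, GSTA4 and CBR1. A match is a description of the letters, not of binding. The 3 promoters below, all of genes that fell by 2-fold or more, are printed 5′ to 3′ along the gene up to the first annotated exon, with the match in capitals. They are TXNRD1 at chr12:104215529-104215778 (plus strand), PGD at chr1:10398814-10399043 (plus strand, matched on the opposite strand) and ME1 at chr6:83431072-83431301 (minus strand).
TXNRD1: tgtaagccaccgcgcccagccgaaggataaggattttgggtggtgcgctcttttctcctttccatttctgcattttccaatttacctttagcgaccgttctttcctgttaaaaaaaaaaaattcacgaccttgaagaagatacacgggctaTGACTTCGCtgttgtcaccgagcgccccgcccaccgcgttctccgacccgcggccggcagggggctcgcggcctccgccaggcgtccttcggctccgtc
PGD: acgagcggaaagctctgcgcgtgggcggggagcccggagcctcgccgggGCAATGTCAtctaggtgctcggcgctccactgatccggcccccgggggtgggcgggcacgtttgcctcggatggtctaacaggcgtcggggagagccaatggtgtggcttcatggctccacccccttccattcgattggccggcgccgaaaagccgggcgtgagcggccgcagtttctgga
ME1: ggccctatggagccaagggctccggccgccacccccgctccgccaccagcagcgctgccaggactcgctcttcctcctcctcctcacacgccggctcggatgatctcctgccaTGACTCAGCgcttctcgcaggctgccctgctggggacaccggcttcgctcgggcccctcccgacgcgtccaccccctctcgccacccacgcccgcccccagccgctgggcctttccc

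Sugar and lipid metabolism also lost transcripts. Glycolysis genes fell in 14 of 22 (63.6%, all genes 23.8%) and rose in 6 (27.3%, all genes 25.4%), with a median of -0.324. Against WT, 12 and 6 of the 22 fell in the S100A16 and MagoHB KD (all genes 24.8% and 22.3%). The direct medians of the hnRNPM KD were -0.222 and -0.24. LDHA, lactate dehydrogenase A, was at 1436, 1465 and 1468 CPM in WT and 631, 581 and 518 in hnRNPM KD, and PGK1, phosphoglycerate kinase, at 277, 271 and 269 and 113, 87.9 and 69.4. Both fell without overlap, with differences of -1.34 (SE 0.09) and -1.60 (SE 0.12), and TPI1 and ENO1 differed by -1.31 and -1.01. The isoforms HK2 (hexokinase) and ENO2 (neuronal enolase) went the other way, with HK2 at 3.48, 2.50 and 2.16 CPM in WT and 12.6, 12.6 and 10.2 in hnRNPM KD, a rise of 2.12. Fatty acid synthesis genes fell in 12 of 18 (66.7%), or 10 without hnRNPM KD 3. The desaturases FADS1 and FADS2 were at -1.80 and -1.78 and the stearoyl desaturase SCD, chosen after its values were seen, at -1.62. Against WT, 11 of the 18 also fell in the S100A16 KD and 11 in the MagoHB KD. The direct medians of the hnRNPM KD for this list were -0.072 and -0.124. Sterol synthesis genes fell in 15 of 24, with the SREBP regulator INSIG1 at -1.50. This sterol median was -0.405 against WT, but 0.238 against the S100A16 KD and 0.345 against the MagoHB KD.

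In the ATF4 program and amino acid list 21 of 35 fell and 5 rose, or 21 and 1 without hnRNPM KD 3, and 3 rose without WT 3. The glutamine transporters SLC38A1 and SLC1A5 differed by -1.68 and -0.78, asparagine synthetase ASNS, chosen after its values were seen, by -1.34, and the stress phosphatase subunit PPP1R15A rose by 1.19. A549 cells express several liver-type secreted proteins, and 13 of 22 such genes fell, 8 of them by 2-fold or more, with a median of -0.848. The fibrinogen chain FGA was at 249, 239 and 208 CPM in WT and 126, 112 and 131 in hnRNPM KD, about as high in hnRNPM KD 3 as in the other 2. FGA fell by 0.92, apolipoprotein APOH fell by 1.90, and vitronectin VTN rose by 1.31.

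Proliferation genes fell across the list. Of 40 DNA replication and G1/S genes 33 fell, 12 of them by 2-fold or more, and 1 rose, with a median of -0.776. Of 40 mitosis and G2/M genes 36 fell, 12 of them by 2-fold or more, with a median of -0.835. In hnRNPM KD 3 the median member stood at -0.402 and -0.49 relative to the other 2 libraries, and without it 28 and 31 fell, with medians of -0.617 and -0.70. CCNE1, the G1/S cyclin, was at 19.5, 19.02 and 18.7 CPM in WT and 6.30, 5.63 and 4.81 in hnRNPM KD. ANLN, the anillin of the cleavage furrow, was at 448, 458 and 449 and 107, 109.7 and 113. The ranges do not overlap for either gene, and the knockdown libraries of ANLN agree closely. CCNE1 fell by 1.77 (SE 0.09, adjusted p = 4.62e-13) and ANLN fell by 2.04 (SE 0.14, adjusted p = 1.14e-08). The replication licensing factor CDC6, the transcription factor E2F2 and cyclin CCNA2 fell, with differences of -1.39, -2.23 and -1.30. CCNE2 was the 1 that rose, by 0.30 (adjusted p = 0.0323), a call lost in DESeq2 (adjusted p = 0.0502) and when any 1 WT library or hnRNPM KD 1 or 2 was left out (adjusted p 0.0553 to 0.14).

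The reference knockdowns were compared with the same WT libraries. Mitosis genes had a median of -0.94 in the S100A16 KD and -0.70 in the MagoHB KD against WT, where 38 and 35 of 40 fell (all genes 24.8% and 22.3%). Directly, the hnRNPM KD differed from them by medians of 0.153 and -0.176. DNA replication and G1/S genes had medians of -0.993 in the S100A16 KD and -0.326 in the MagoHB KD, where 38 and 17 of 40 fell. The direct medians for this list were 0.161 and -0.393, with 11 and 2 members higher and 6 and 20 lower in the hnRNPM KD. ANLN and CCNE1 were lower than in both reference knockdowns. The differences from the S100A16 and MagoHB KD were -1.37 and -1.08 for ANLN, and -2.21 and -1.90 for CCNE1.

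Genes of the RNA and protein machinery mostly fell by small amounts. Core spliceosome genes fell in 32 of 43 and rose in 1 (26 and 2 without hnRNPM KD 3), with a median of -0.317. In the S100A16 and MagoHB KD 39 and 27 of the 43 fell against the same WT libraries (all genes 24.8% and 22.3%). Their medians there were -0.604 and -0.299, and the direct medians of the hnRNPM KD against those knockdowns were 0.237 and -0.006. SNRPD3, an Sm protein of the spliceosomal snRNPs, was at 55.95, 55.4 and 56.9 CPM in WT and 30.1, 28.6 and 29.1 in hnRNPM KD. SNRPD3 fell by 0.94 (SE 0.08) with no overlap and differed by -0.71 and -0.71 from the other knockdowns, whereas LSM8 was the 1 that rose (0.53). Among hnRNP genes 17 of 30 fell and 4 rose, with a median of -0.261, and PTBP1, a repressor of exon inclusion, was among those that fell (-0.48). The S100A16 and MagoHB KD had 24 and 11 of the 30 hnRNP genes fallen against WT, with direct medians of 0.164 and -0.062. Of 24 SR protein genes 8 fell (33.3%) and 6 rose (25%), beside 23.8% and 25.4% of all genes, with TRA2B at -0.53 and SRSF6 at 0.37. Among other splicing regulators, QKI, an RNA-binding protein of epithelial-mesenchymal splicing, was at 47.6, 46.1 and 46.6 CPM in WT and 87.8, 94.2 and 104 in hnRNPM KD, and rose by 1.03 (SE 0.06). MBNL1 rose by 0.47 and HIPK3, a kinase related to the DYRK family, fell by 1.52.

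Nonsense-mediated decay factors were called at about the rate of all genes: 4 of 18 rose (22.2%) and 4 fell (22.2%), beside 25.4% and 23.8%, and 10 were not called. The decapping enzyme DCP2 rose by 0.73 and UPF3A by 0.53, whereas XRN1, the exonuclease that degrades decapped RNA, fell from 30.4, 29.5 and 27.98 CPM to 12.4, 12.1 and 16.3, a difference of -1.10. The exon junction complex list had 5 risen and 5 fallen of 14 (3 risen without hnRNPM KD 2, 3 fallen when scaled by total counts alone). Each count is 35.7%, beside 25.4% and 23.8% of all genes. Against WT, 11 and 5 of the 14 fell in the S100A16 and MagoHB KD, with direct medians of 0.449 and 0.027 for the hnRNPM KD. MAGOHB, a member of this list, fell by 1.17, to 76.9, 67.9 and 54.5 CPM from 147, 156 and 146. Against the MagoHB KD its difference was 0.35 (adjusted p = 0.0505).

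Mitochondrial ribosomal proteins fell in 47 of 60 and rose in 2 (1 without hnRNPM KD 1, 6 when scaled by total counts alone), proteasome subunits fell in 24 of 32, and heat shock chaperones fell in 17 of 23. Their medians were -0.358, -0.287 and -0.558. Without hnRNPM KD 3, 37, 20 and 17 members fell. Scaled by total counts alone, 33 mitochondrial ribosomal and 18 proteasome genes fell. Against the same WT libraries the 3 lists had 51, 27 and 14 members fallen in the S100A16 KD (all genes 24.8%). In the MagoHB KD 47, 30 and 18 fell (all genes 22.3%). The direct medians of the hnRNPM KD were 0.19, 0.075 and -0.196 against the S100A16 KD. Against the MagoHB KD they were 0.068, 0.073 and -0.102. HSP90AA1, the stress-inducible HSP90, was at 6184, 6118 and 5765 CPM in WT and 2623, 2742 and 2174 in hnRNPM KD, well apart, and fell by 1.26 (SE 0.10). The heat shock factor HSF2 fell by 1.52. Against the list, MRPL33 rose from 18.3, 19.2 and 16.7 CPM to 54.2, 60.8 and 55.3, by 1.65. Of the cytosolic ribosomal proteins 23 of 74 rose (31.1%, all genes 25.4%) and 7 fell (9.46%, all genes 23.8%), with a median of 0.057. Scaled by total counts alone, 45 rose and 1 fell. Against WT, 72 of the 74 fell in the S100A16 KD (all genes 24.8%) and 55 rose in the MagoHB KD (all genes 23.3%). The direct medians of the hnRNPM KD for this list were 0.642 and -0.188.

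Of 62 nuclear-encoded oxidative phosphorylation subunits 30 fell and 2 rose, with a median of -0.185. These became 22 and 4, with a median of -0.107, without hnRNPM KD 3. The 2 that rose became 0 or 1 without hnRNPM KD 1 or 2 or WT 2 or 3, and 6 when scaled by total counts alone. In the S100A16 and MagoHB KD 49 and 26 of the 62 fell against WT (all genes 24.8% and 22.3%). The direct medians of the hnRNPM KD against them were 0.154 and -0.035. A pair of genes of succinate dehydrogenase (complex II) stood far below the rest. SDHB was at 33.8, 33.1 and 33.2 CPM in WT and 7.08, 7.66 and 6.08 in hnRNPM KD, and SDHD at 23.3, 22.6 and 22.6 and 4.78, 3.89 and 4.41. The 3 knockdown libraries lie far below WT in both genes, with means at 20.8% and 19.1% of WT. SDHB differed by -2.27 (SE 0.10) and SDHD by -2.38 (SE 0.10) from WT, by -1.63 and -1.77 from the S100A16 KD, and by -2.06 and -2.02 from the MagoHB KD. The other 2 subunits, chosen after their values were seen, differed by -0.54 (SDHC) and -0.20 (SDHA), and SDHA missed the threshold without hnRNPM KD 3 (-0.11, adjusted p = 0.224).

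**Figure D4:**
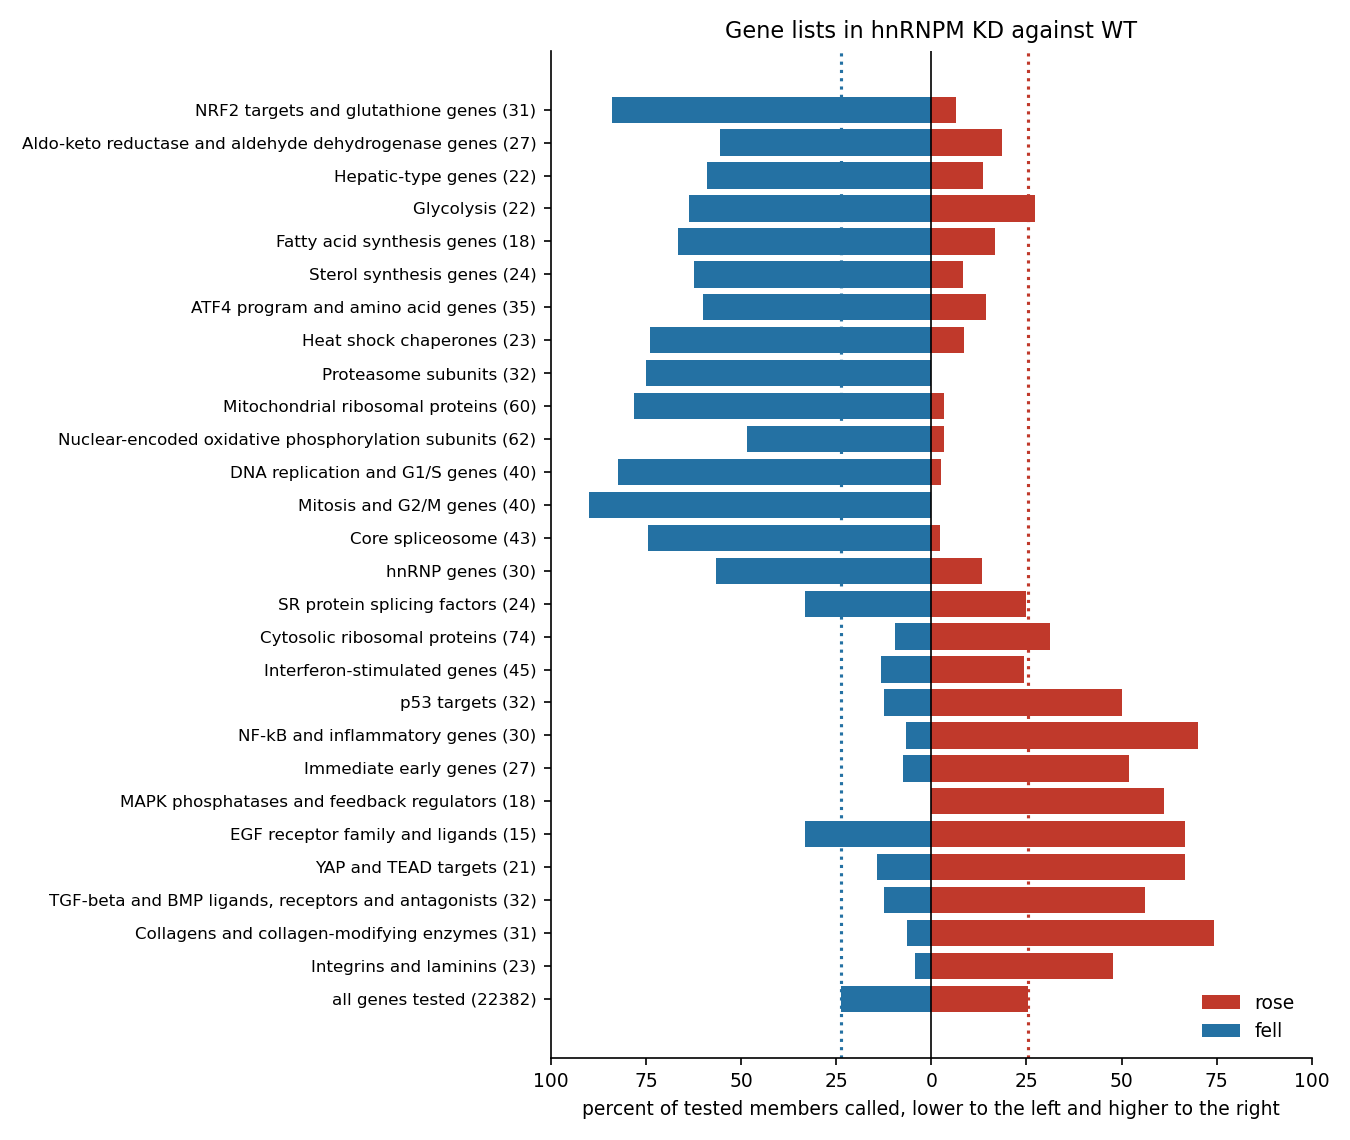
Percent of the tested members of each gene list called lower (bars to the left) and higher (bars to the right) in hnRNPM KD against WT, with the number tested in brackets; dotted lines mark the 23.8% of all tested genes that were lower and the 25.4% that were higher. NRF2 targets, mitosis and replication genes reach furthest to the left, and collagens and inflammatory genes furthest to the right.

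Growth factor, YAP and matrix genes rose. YAP and TAZ are coactivators that bind TEAD factors when cells are spread and stretched, and their targets include matricellular and cytoskeletal genes. Of 21 targets 14 rose and 3 fell, with a median of 0.649 (0.501 without hnRNPM KD 3, again with 14 risen). CTGF, a matricellular protein chosen after its values were seen, was at 11.9, 11.8 and 10.1 CPM in WT and 54.9, 57.3 and 55.6 in hnRNPM KD, and CYR61, its relative, at 19.1, 17.1 and 19.4 and 61.8, 69.7 and 54.1. ANKRD1, a cytoskeletal and nuclear ankyrin protein, was at 66.7, 68.4 and 61.6 and 507, 611 and 669. The knockdown libraries of CTGF are nearly equal, and none of the 3 genes overlaps with WT. CTGF rose by 2.31 (adjusted p = 7.76e-06), CYR61 by 1.74 (SE 0.14, adjusted p = 2.17e-08) and ANKRD1 by 3.18 (SE 0.33, adjusted p = 3.21e-06). In the S100A16 and MagoHB KD 15 and 16 of the 21 targets also rose against the same WT libraries, with medians of 0.469 and 0.606. Directly against these knockdowns 7 and 10 were higher and 2 and 4 lower, and CTGF was higher by 1.11 and 0.78. The adaptor AJUBA fell by 0.82, and the kinase LATS2, which restrains YAP, fell by 0.72. Of the coactivators, chosen after their values were seen, YAP1 fell by 0.69 and WWTR1, which encodes TAZ, rose by 0.33.

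The TEAD motif GGAATG, on either strand, occurs in 11.9% of the 27305 promoters and in 5 of 17 list members with one (29.4%). The CTGF promoter (chr6:131951374-131951622, minus strand, GRCh38.p14, RefSeq) holds 3 matches, 169, 104 and 95 bases before the start. The annotation places the gene AL133346.1 on the opposite strand across this window, so reads of the 2 genes could not be told apart there without strand.
CTGF: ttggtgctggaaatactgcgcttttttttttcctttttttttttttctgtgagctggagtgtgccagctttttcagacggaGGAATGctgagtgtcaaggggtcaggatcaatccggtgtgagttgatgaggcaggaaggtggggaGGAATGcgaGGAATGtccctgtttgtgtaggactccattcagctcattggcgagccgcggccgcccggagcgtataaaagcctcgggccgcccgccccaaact

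Collagens and the enzymes that modify them rose in 23 of 31 tested and fell in 2 (1 without hnRNPM KD 2, WT 1 or WT 2), with a median of 0.691 (0.598 and 20 risen without hnRNPM KD 3). In the S100A16 and MagoHB KD 20 and 18 of the 31 rose against the same WT libraries (all genes 27.6% and 23.3%). Their medians there were 0.558 and 0.591, and the direct medians of the hnRNPM KD were 0.275 and 0.408. COL4A1, a basement membrane collagen, was at 252, 246 and 257 CPM in WT and 903, 991 and 1123 in hnRNPM KD, and COL5A2, a fibrillar chain, at 312, 311 and 305 and 834, 866 and 938. COL11A1 was at 159, 155 and 142 and 416, 429.9 and 394. In all 3 the groups are far apart. COL4A1 rose by 2.00 (SE 0.10), COL5A2 by 1.51 (SE 0.08) and COL11A1 by 1.44 (SE 0.08). COL11A1 was also higher by 2.03 against the S100A16 KD and 1.40 against the MagoHB KD, while for COL4A1 these differences were 0.27 and 0.91. Of 9 fibroblast markers COL3A1, LUM and FAP rose, and the summed level of the 9 was 87.45 to 118.3 CPM in WT and 75.74 to 92.29 in hnRNPM KD, so that it did not lie above WT. The lysyl oxidase LOXL3 fell by 0.62, and COL12A1 fell by 0.19, a call lost when scaled by total counts alone (-0.08, adjusted p = 0.286).

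Among integrins and laminins 11 of 23 rose and 1 fell, but 9 rose and 3 fell without hnRNPM KD 3, and the median went from 0.60 to 0.251. The S100A16 and MagoHB KD had 18 and 11 of the 23 risen against WT, with medians of 0.798 and 0.282. The direct medians of the hnRNPM KD against them were -0.033 and 0.798. The laminin chain LAMB1 rose by 1.17 and the integrins ITGA6 and ITGA2 by 0.98 and 1.52. FN1, chosen after its values were seen, was at 659, 613 and 611 CPM in WT and 495, 514 and 1281 in hnRNPM KD, so that hnRNPM KD 3 alone lay above WT and the other 2 libraries below it. Its difference was 0.28 (adjusted p = 0.446) with all libraries and -0.32 (adjusted p = 0.0277) without hnRNPM KD 3.

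In the EGF receptor family and its ligands, which drive growth through receptor kinases, 10 of 15 rose (66.7%) and 5 fell (33.3%). Of all genes 25.4% rose and 23.8% fell. Without hnRNPM KD 3, 7 of the 15 rose and 5 fell. Against WT, 8 and 6 of the 15 rose in the S100A16 and MagoHB KD (all genes 27.6% and 23.3%). The direct medians of the hnRNPM KD for this list were 0.216 and 0.812. HBEGF was at 2.68, 1.68 and 2.09 CPM in WT and 16.4, 19.1 and 28.6 in hnRNPM KD, and AREG at 81.3, 78.95 and 88.4 and 206, 214 and 167, both above WT in every knockdown library. HBEGF rose by 3.31 (SE 0.31), AREG by 1.24 (SE 0.08) and NRG1 by 0.76 (SE 0.09). The receptor ERBB3 fell from 17.8, 14.96 and 14.5 CPM to 5.44, 4.34 and 2.74, a difference of -1.92, and differed by -3.26 and -2.64 from the S100A16 and MagoHB KD. MAPK phosphatases and feedback regulators, which are induced by MAPK signalling and damp it, rose in 11 of 18 (61.1%), with DUSP4 up by 1.18 and SPRY2 by 1.30. Against WT, 6 and 7 of the 18 rose in the S100A16 and MagoHB KD, and 4 and 7 fell. Immediate early genes rose in 14 of 27 (51.9%) and fell in 2 (7.41%), or 12 and 3 without hnRNPM KD 3. Against WT, 12 and 13 of the 27 also rose in the S100A16 and MagoHB KD. The direct medians of the hnRNPM KD for this list were 0.093 and 0.012. FOSL1, an AP-1 subunit, was at 22.4, 22.3 and 24.8 CPM in WT and 96.6, 106 and 120.3 in hnRNPM KD and rose by 2.22 (SE 0.26), while FOS fell by 1.41. Activin and TGF-beta family genes rose in 18 of 32 (56.2%) and fell in 4 (12.5%). The latent TGF-beta binding protein LTBP1 was up by 1.45, the receptor TGFBR2 by 0.86 and the inhibitory SMAD6 at -1.35. Against WT, 16 and 14 of the 32 also rose in the S100A16 and MagoHB KD, and 7 and 11 fell. The direct medians of the hnRNPM KD for this list were 0.102 and 0.39.

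Inflammatory genes rose, most in hnRNPM KD 3. Of 30 tested NF-kB and inflammatory genes 21 rose, 18 of them by 2-fold or more, and 2 fell, with a median of 1.09. Without hnRNPM KD 3, 17 rose with a median of 0.843. The leukocyte marker CD68 was at 98.3 CPM in WT and 110.4 in hnRNPM KD on average, and its part in these rises was not tested. PTX3 was at 1.28, 1.318 and 1.91 CPM in WT and 18.02, 21.04 and 33.4 in hnRNPM KD. ICAM1, a leukocyte adhesion molecule chosen after its values were seen, was at 3.32, 3.41 and 3.41 and 9.03, 10.3 and 23.2. IL6 was low throughout, at 0.412, 0.636 and 0.319 and 1.96, 1.77 and 5.38. All 3 genes lay above WT in each knockdown library and were highest in hnRNPM KD 3. PTX3 rose by 4.00 (3.69 without hnRNPM KD 3), ICAM1 by 2.07 (1.51) and IL6 by 2.75 (2.03). The NF-kB subunit RELB rose by 1.52, and PTGS2, the prostaglandin synthase, fell from 33.2, 31.5 and 30.5 CPM to 17.7, 17.02 and 17.3, a difference of -0.87. CXCL1, a neutrophil chemokine chosen after its values were seen, was at 1.10, 1.64 and 1.62 and 2.82, 3.07 and 6.39 and rose by 1.51, a call that was lost without hnRNPM KD 3 (1.01, adjusted p = 0.0711). The reference knockdowns showed similar medians against the same WT libraries, 1.309 in the S100A16 KD and 1.076 in the MagoHB KD, with 22 and 20 of 30 risen (all genes 27.6% and 23.3%). The direct medians against them were -0.128 and 0.162.

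IL11 was higher than in both reference knockdowns. Its level was 0.357, 0.675 and 0.529 CPM in the S100A16 KD and 1.80, 2.11 and 1.39 in the MagoHB KD, against 18.5, 23.8 and 22.2 in the hnRNPM KD, a direct difference of 5.35 (adjusted p = 4.93e-13) and 3.60 (adjusted p = 2.74e-11). Of its receptors, chosen after their values were seen, the shared signalling chain IL6ST fell by 1.09, from 98.5, 102 and 95.5 CPM to 44.6, 41.5 and 52.9, and IL11RA was at 2.86, 2.86 and 2.69 and 3.72, 4.79 and 2.98 (difference 0.44, adjusted p = 0.0669, and 0.59, adjusted p = 0.0197, without hnRNPM KD 3).

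The promoters of these cytokines carry known motif letters. The NF-kB motif, read as the first 10 capitals of the CXCL1 promoter with any base at places 5 to 8 and searched on either strand, occurs in 22.1% of all 27305 promoters, in 27.4% of those of tested genes, and in 17 of 24 list members with one (70.8%). In the CXCL1 promoter (chr4:73869143-73869392, plus strand, RefSeq, GRCh38.p14) 2 overlapping matches begin 79 and 78 bases before the start. The AP-1 motif TGAGTCA, on either strand, occurs in 4.16% of promoters and once in that of IL11 (chr19:55370464-55370713, minus strand), the cytokine with the largest rise.
CXCL1: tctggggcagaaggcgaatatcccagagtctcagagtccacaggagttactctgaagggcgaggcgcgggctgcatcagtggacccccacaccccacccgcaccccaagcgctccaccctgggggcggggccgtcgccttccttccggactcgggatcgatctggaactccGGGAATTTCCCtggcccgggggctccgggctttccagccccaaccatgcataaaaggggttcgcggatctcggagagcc
IL11: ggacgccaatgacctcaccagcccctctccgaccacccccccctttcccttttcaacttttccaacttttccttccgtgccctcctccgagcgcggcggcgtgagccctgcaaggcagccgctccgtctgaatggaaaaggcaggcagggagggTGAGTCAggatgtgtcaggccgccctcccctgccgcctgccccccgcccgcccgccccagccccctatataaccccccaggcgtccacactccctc

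Of 45 tested interferon-stimulated genes 11 rose (24.4%), near the 25.4% of all genes, 6 fell (13.3%, beside 23.8%) and 28 were not called, with a median of 0.158. Without hnRNPM KD 3 the counts were 4 and 8 and the median -0.024, and leaving out WT 1, 2 or 3 left 6, 6 and 3 that rose. OAS1, which makes the activator of RNase L, was at 101.5, 98.98 and 94.2 CPM in WT and 52.98, 50.8 and 59.2 in hnRNPM KD, lower in the knockdown with no overlap. OAS1 fell by 0.85 (SE 0.06, adjusted p = 1.67e-10) and the RNA-activated kinase EIF2AK2 fell by 0.77. The sensor IFIH1 rose by 0.72, the guanylate-binding protein GBP3 by 2.18, and DDX58, which encodes RIG-I, was at 35.3, 31.2 and 27.2 and 35.6, 36.3 and 51.8 (difference 0.40, adjusted p = 0.102). DHX58 differed by -0.25 (adjusted p = 0.37), and the editing enzyme ADAR fell by 0.27, a call lost when scaled by total counts alone (-0.15, adjusted p = 0.0619). Against the S100A16 KD 41 of the 45 were lower, with a median of -1.356, and against the MagoHB KD 28 were lower, with a median of -0.669. In those knockdowns 43 and 36 of the 45 rose against the same WT libraries (all genes 27.6% and 23.3%), with medians of 1.486 and 0.984. MHC class I and immunoproteasome genes rose in 7 of 17, or 5 without hnRNPM KD 3, with PSMB8 up by 0.89. Of these 17 genes 16 rose in the S100A16 KD and 14 in the MagoHB KD against WT. Directly, 16 and 8 were lower in the hnRNPM KD (all genes 24.6% and 22.2%), with medians of -0.678 and -0.315.

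**Figure D5:**
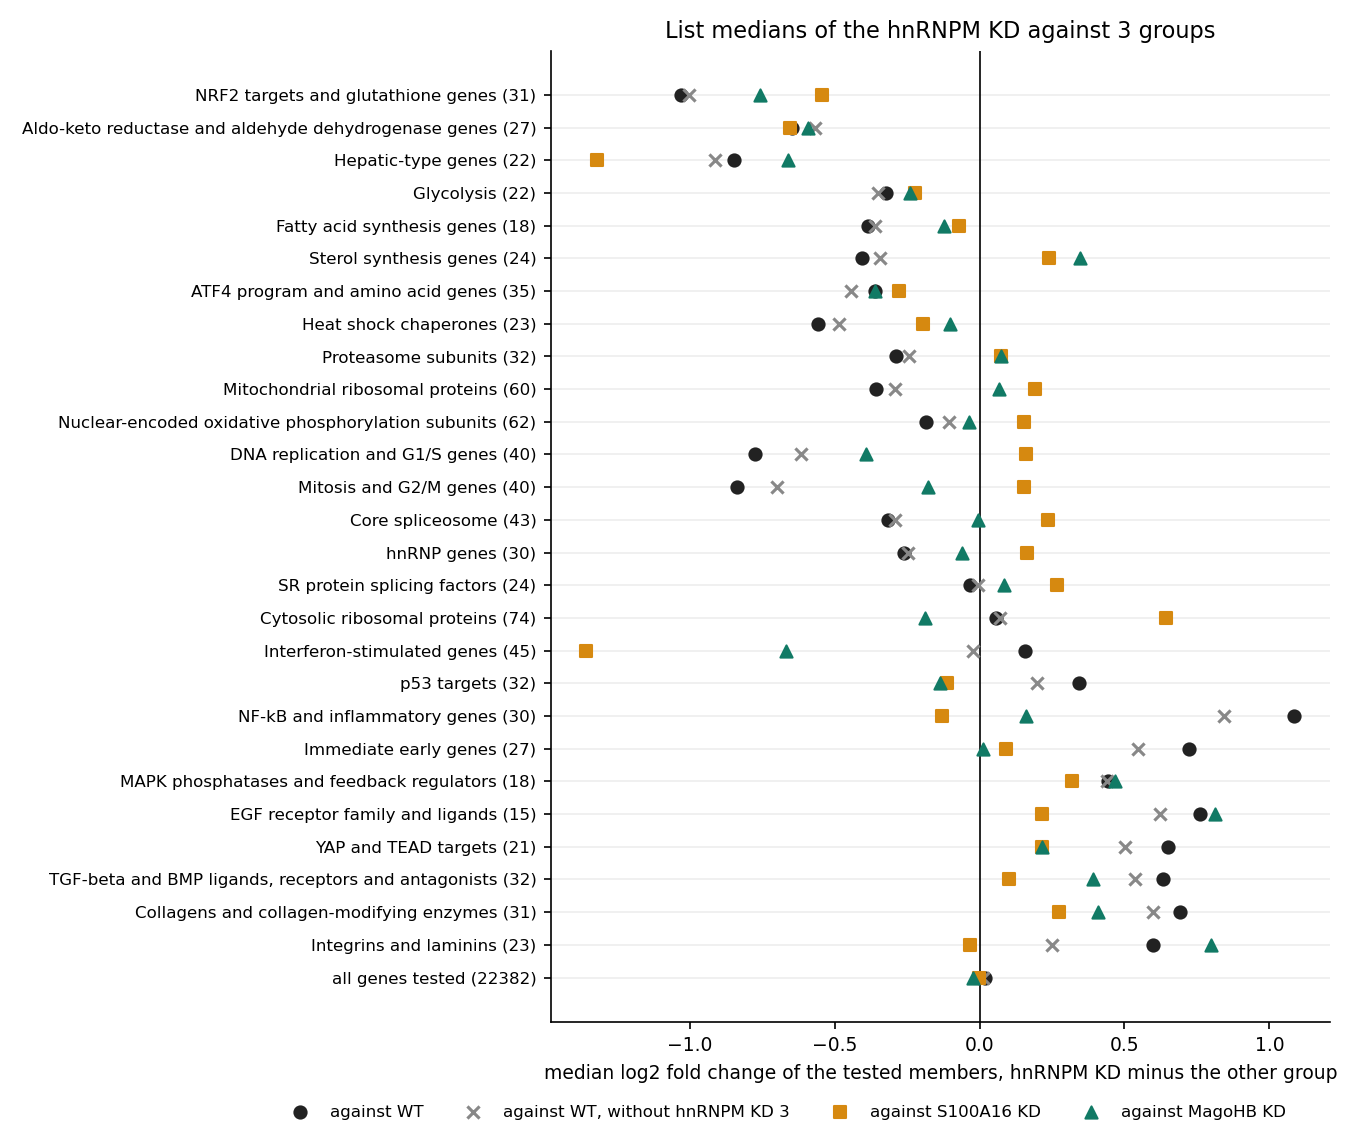
Median log2 fold change of the tested members of each gene list for the hnRNPM KD against WT (black circles), against WT without hnRNPM KD 3 (grey crosses), against the S100A16 KD (orange squares) and against the MagoHB KD (green triangles). NRF2 targets and hepatic-type genes lie left of 0 in all 4, mitosis genes lie far left only against WT, and interferon-stimulated genes lie far left only against the other knockdowns, in which most of them rose against WT.

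Of 32 p53 targets 16 rose and 4 fell, with a median of 0.343, but 9 rose and 6 fell without hnRNPM KD 3. In the S100A16 and MagoHB KD 23 and 21 of the 32 rose against the same WT libraries (all genes 27.6% and 23.3%). Their medians there were 0.695 and 0.602, and the direct medians of the hnRNPM KD were -0.113 and -0.137. CDKN1A, the p21 cell cycle inhibitor chosen after its values were seen, was at 27.7, 28.8 and 27.3 CPM in WT and 14.7, 16.1 and 29.5 in hnRNPM KD. Here hnRNPM KD 1 and 2 lay below WT and hnRNPM KD 3 above it, with a difference of -0.47 (adjusted p = 0.165), and -0.86 (adjusted p = 0.00992) without hnRNPM KD 3. In the BCL2 family 10 of 19 rose and 1 fell. Against WT, 8 and 10 of the 19 also rose in the S100A16 and MagoHB KD, and the direct medians of the hnRNPM KD were 0.114 and 0.118. The survival factors MCL1 and BCL2L1 rose by 0.96 and 0.75, and BID, which links death receptors to mitochondria, fell from 20.4, 20.5 and 19.2 CPM to 7.87, 6.62 and 8.25, a difference of -1.40 (SE 0.08).

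Of 22 tested epithelial genes 7 rose (31.8%), 6 fell (27.3%) and 9 were not called, beside 25.4% and 23.8% of all genes, and 4 rose without hnRNPM KD 3. The direct medians of these genes against the S100A16 and MagoHB KD were -0.073 and 0.075. CDH1, the epithelial cadherin chosen after its values were seen, was at 55.5, 48.2 and 44.3 CPM in WT and 22.3, 18.8 and 13.99 in hnRNPM KD, below WT in all 3, and fell by 1.43 (adjusted p = 3.23e-06). The desmosomal plakophilin PKP3 and the repressor OVOL2 differed by -1.51 and -1.16, but the tight junction protein OCLN rose by 0.65 and the simple epithelial keratins KRT8 and KRT18 by 0.58 and 0.30. KRT7, chosen after its values were seen, differed by 0.33 (adjusted p = 0.0828). Of 26 mesenchymal genes 11 rose (42.3%) and 1 fell (3.85%), or 12 and 2 without hnRNPM KD 3, and 2 also fell without hnRNPM KD 2. Against WT, 8 and 11 of the 26 also rose in the S100A16 and MagoHB KD (all genes 27.6% and 23.3%). The direct medians of the hnRNPM KD for this list were 0.242 and 0.155. SPARC, a matrix glycoprotein, was at 63.7, 64.8 and 75.2 CPM in WT and 269.9, 308 and 436 in hnRNPM KD and rose by 2.32 (SE 0.22), ZEB2 rose by 0.44 and vimentin VIM, chosen after its values were seen, by 0.53. S100A4 was the 1 that fell with all libraries, from 54.4, 56.5 and 53.99 CPM to 15.01, 14.03 and 14.1, a difference of -1.93 (SE 0.07). The hair keratins KRT81 and KRT86 fell, with differences of -1.62 and -1.80.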

How the data were processed

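RNA from untreated A549 WT and hnRNPM KD cells was sequenced after poly(A) selection, with 3 libraries per group. Per the submitters' processing notes, the authors used build GRCh38 and HISAT2 2.2.1, with StringTie 2.1.4, DESeq2 1.32.0 and the tools SAMtools 1.15.1 and FastQC 0.11.9. No source used here names the counting program, annotation or strand setting. The authors deposited raw counts per gene for 44016 features, and RPKM values that equal the counts scaled by exon length and library total within 0.001. Low counts are mostly even (18.6 to 22% of counts from 1 to 19 are odd), so halved counts were tried.

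The deposited counts entered edgeR 4.0.16 under R 4.3.3: TMM scaling, its default filter on low counts (22382 genes kept), robust quasi-likelihood F tests, 1 mean per group over all 18 libraries, and Benjamini-Hochberg adjustment over all genes. CPM levels divide counts by TMM-scaled totals. RPKM is used only for levels per length. In simulated data the test recovered 83.6% of 1.5-fold and 97% of 2-fold changes. These were 67 genes per fold, all of at least 5 CPM, with nearly all other genes equal between the 2 groups. Recovery was not measured for genes of lower level, nor where 49.1% of genes are called. A library that stands apart was not simulated. Named genes are the 15 largest changes in each direction among separated genes of at least 5 CPM, the 10 of highest level with a 2-fold change, the 10 in each direction with the largest smallest change against all 3 groups, and up to 4 and 2 members per list and direction by p. A set around hnRNPM and RNA sensing was always named. Some genes that these rules name are not reported here. The comparisons, gene lists and these rules were chosen with earlier results of these data known. Alternatives were other scalings, no filter, halved counts, DESeq2 1.42.0, the 2 groups alone, a replicate block and leaving out each library.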

Additional observations from a re-analysis of the deposited data

How the results depend on the processing

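The number of genes called against WT was 10999 and ranged from 9818 to 11418 over all alternatives, and from 9818 to 10570 when 1 library was left out. DESeq2 called 10874. Genes called at 2-fold or more numbered 3209, with a range of 2801 to 3412. Against the MagoHB KD 9963 genes were called, or 6893 with those 2 groups alone. Replicate numbers did not pair the libraries (correlations of deviations -0.00809, 0.00034 and -0.0162), and with the replicate block 10864 genes were called against WT, 10839 against the S100A16 KD and 9794 against the MagoHB KD. Of 145 genes followed, 130 kept their direction and their side of the threshold under every alternative. HNRNPH1, which was not called, was at -0.0052 without hnRNPM KD 1 and -0.0282 without hnRNPM KD 2, and ranged from -0.0282 to 0.1224 over the libraries left out. Without hnRNPM KD 3, FN1 was at -0.3169 and C3 at -0.0491 (at most 0.5094 and 0.9211 with another library left out), and with the 2 groups alone and without that library, an alternative chosen after seeing the data, they were at -0.3093 and -0.0428. The cause was not tested. Low counts limit genes such as COL21A1 and IL11 in WT, where each library holds under 1 CPM.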

Other observations

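The genome windows of highest median were the protocadherin clusters on chromosome 5, whose genes encode cell adhesion molecules that give neurons their surface identity. Protein-coding genes were read in 464 windows of 25 in chromosome order. Genes of low summed level in WT and hnRNPM KD were left out, so these 25 need not be adjacent. A gene low in WT could then enter only if it was higher in the knockdown. Among protein-coding genes of at most 2.531 CPM in WT, 32.7% rose and 8.07% fell, with a median of 0.464. How far this raises the counts and medians of the windows was not tested. In the window from 140639427 to 141320821 (GRCh38) 22 of 25 genes rose, with a median of 1.626, and in that from 141330571 to 141641077, 24 of 25 rose, with a median of 1.258. The median against the S100A16 KD was -0.118 and 0.148, and against the MagoHB KD -0.579 and 0.199. The clustered genes share exons, so reads may be split between them. The lowest window, on chromosome 2 from 226731317 to 231786272, had a median of -0.464.

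The 14117 tested protein-coding genes were cut into 4 classes of about equal size by genomic span. In the class of shortest genomic span 24.8% rose and 26.7% fell, and in that of longest span 36.8% rose and 26% fell. These are descriptions across genes, which are not independent replicates.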
